A study of Mus musculus with 14 samples.

Results

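Genes of the ATF4 arm of the integrated stress response, of the endoplasmic reticulum (ER) stress response and of amino acid transport were followed in cultured mouse CD4 T cells with and without acetate. The 36 genes were chosen by name, with earlier results of these data known. They are transcription factors and brakes of the stress response, stress effectors, and enzymes of amino acid and one-carbon synthesis. Amino acid transporters and ER folding or degradation factors complete the set. Shares of all genes printed beside their counts are therefore descriptive and not independent of that choice. Of the 36 genes, 35 had a probe set with that single symbol on the array, among 18193 such genes in all. The expression of Pycr1 was not analysed here. Each gene was read from its probe set with the highest mean over the 14 arrays, and 34 of the 35 passed the filter on low signals that left 10916 genes tested. The exception was Slc7a11, the cystine transporter subunit, whose signals were between 1.5 and 14.9 on the 14 arrays and which was therefore not tested.

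The cells came from mouse spleen and lymph nodes and were polarised in culture toward Th17, Treg or Th1 cells, all with human IL-2. Th17 cultures also received human TGF-b1, mouse IL-6, IL-1b, IL-23, IL-21 and TNF-a, and antibodies to IL-4 and IFN-gamma. Treg cultures received human TGF-b1, and Th1 cultures mouse IL-12 and an antibody to IL-4. Each condition was run without addition (control) or with acetate (C2 in the labels), a bacterial short-chain fatty acid, at a dose of 10 mM. Th17 groups had 3 arrays each, and the Treg and Th1 groups 2 each. In the label protocols the agent of the treated Treg and Th1 cultures is written acetone, whereas the series design gives sodium acetate throughout; both are called acetate below. Culture time is 5 days in the label protocols and 6 to 7 in the series design. No strain, genotype or age is given in the labels used here, and the IL-2, present in every group, is shared by treated and control cultures. Nothing in the labels says that the arrays within a group represent different animals or cultures, so the p-values measure only how far these arrays spread, possibly for technical reasons.

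Cells sense shortage of amino acids, unfolded protein in the ER and other stresses through kinases that phosphorylate the translation factor eIF2. General translation then slows while the mRNA of ATF4 is translated more, and ATF4, with partner factors of the C/EBP family, activates genes that make and import amino acids, charge tRNAs and feed back on the response. Because ATF4 is controlled largely at translation, the level of its own mRNA is not a measure of its activity. The ER arm adds ATF6 and the splicing of Xbp1, which raise chaperones such as Hspa5. Activated T cells depend on amino acid transporters, of which the heterodimer of Slc7a5 and Slc3a2 carries large neutral amino acids.

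ATF4 and its C/EBP partners bind a composite element, TGATGNAA, which reads TTNCATCA on the other strand. A search of the RefSeq promoters (GRCm38.p6, from 250 bases before to 50 after each gene's start, both strands) found it in 10 of the 31 genes of the set that have a promoter there (32.3%), and in 4.51% of all 27025 genes with one. The form TGATGCAA, which is contained in the first, was in 8 of the 31 (25.8%) and in 1.03% of all genes. The windows shown are from some of the genes with TGATGNAA, all described below. Vldlr and the untested Pycr1 and Slc7a11 also had a match before the start. In Slc1a4 the match spanned the start, and in Trib3 it lay after the start. Capitals mark the match, with 20 bases on either side where the window before the start allows, and each is written on its gene's strand. A match is a description of the letters and not evidence of binding.

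Asns, chr6:7693210-7693252, minus strand: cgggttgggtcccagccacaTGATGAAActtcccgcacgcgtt

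Chac1, chr2:119351029-119351076, plus strand: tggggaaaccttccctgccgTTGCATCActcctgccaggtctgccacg

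Nupr1, chr7:126625553-126625600, minus strand: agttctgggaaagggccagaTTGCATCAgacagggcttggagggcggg

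Atf3, chr1:191183416-191183463, minus strand: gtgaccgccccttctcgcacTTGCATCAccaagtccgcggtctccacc

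Herpud1, chr8:94386297-94386344, plus strand: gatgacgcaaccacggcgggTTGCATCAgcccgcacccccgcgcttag

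The match began 23 bases before the start in Asns, 193 in Chac1, 110 in Nupr1, 110 in Atf3 and 112 in Herpud1. The ER stress response element, CCAAT and CCACG with 9 bases of any kind between them, was found in 1 of the 31 promoters, that of the ER chaperone Hspa5 (3.23%), and in 0.137% of all genes. The cAMP response element TGACGTCA was in 1, that of Ppp1r15a, and in 2.03% of all genes, and the XBP1 element TGACGTGG in 0 and in 0.714%. The Hspa5 element is shown with capitals on the element, 65 bases before the start.

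Hspa5, chr2:34772005-34772063, plus strand: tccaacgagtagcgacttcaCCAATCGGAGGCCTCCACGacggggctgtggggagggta

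Before the acetate comparisons, the labels were checked against lineage genes. Il17a had a mean normalized signal of 652 in Th17 control and 4335 in Th17 acetate cultures and at most 13.4 in the other groups. Ifng was highest, at 9986, in Th1 acetate cultures, but its 1937 in Th1 controls was below the 2788 of Treg acetate cultures. Tbx21 and Il12rb2 were highest in the Th1 groups (315 and 209 in controls, 439 and 221 with acetate). Cxcr3, another Th1 marker, was highest in Treg controls, at 448, and had 84.4 in Th1 controls. Foxp3, which defines Treg cells, had 332 in Treg control cultures but 59.1 in Treg acetate cultures, below the 82.8 of Th17 control cultures and above the other 3 groups, which were between 12.9 and 14.2. Of the other Treg markers, Ikzf2 had 596 in Treg control and 298 in Treg acetate cultures, the highest 2 groups. Ctla4 was also highest in these groups, at 3203 and 3714, and was not lower with acetate. Il2ra went the other way, with its lowest mean, 499.5, in Treg controls and 1455 in Treg acetate cultures. The Treg acetate arrays are thus named for their culture condition, and their defining marker was lower than in untreated Th17 cultures. Array trimmed means ran from 53.2 to 116.0 as deposited, so the arrays were brought to one distribution by quantile normalization, and all signals below are on that scale. The 3-prime control probe set for 18S ribosomal RNA read 2809 to 4149 on Th17 arrays, with overlap between control and acetate. On Th1 arrays it read 298 to 609 in controls and 879 to 1576 with acetate, without overlap. Among Treg arrays it read 3134 on control replicate 1 and 506 to 816 on the others. Comparisons between conditions, and that of acetate with control in Th1 cultures, therefore carry such a difference, and its part was not tested. On Treg control arrays the 3-prime to 5-prime ratio of Gapdh was 1.22 and 1.23, against 0.99 to 1.10 on all other arrays.

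In Th17 cultures, acetate came with lower signals of most of these genes. With limma and Benjamini-Hochberg adjustment over all 10916 genes, 23 of 34 fell and 0 rose at an adjusted p under 0.05, where 8.66% of all genes fell and 11.7% rose; at an unadjusted p under 0.05, 28 were lower and 0 higher (15.5% and 19% of all genes). The median difference of the 34 was -1.08 on the log2(signal + 3) scale, against 0.01 for all genes tested, and 33 of the 34 were negative. For 26 of the 34, all 3 acetate arrays lay below all 3 control arrays, a pattern seen in 19.3% of all genes, and for 0 of the 34 all lay above (21.8% of all genes). The counts by role were 7 of 8 for transporters, 5 of 7 for stress effectors, 5 of 8 for synthesis enzymes, 4 of 6 for regulators and 2 of 5 for ER factors.

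**Figure D1:**
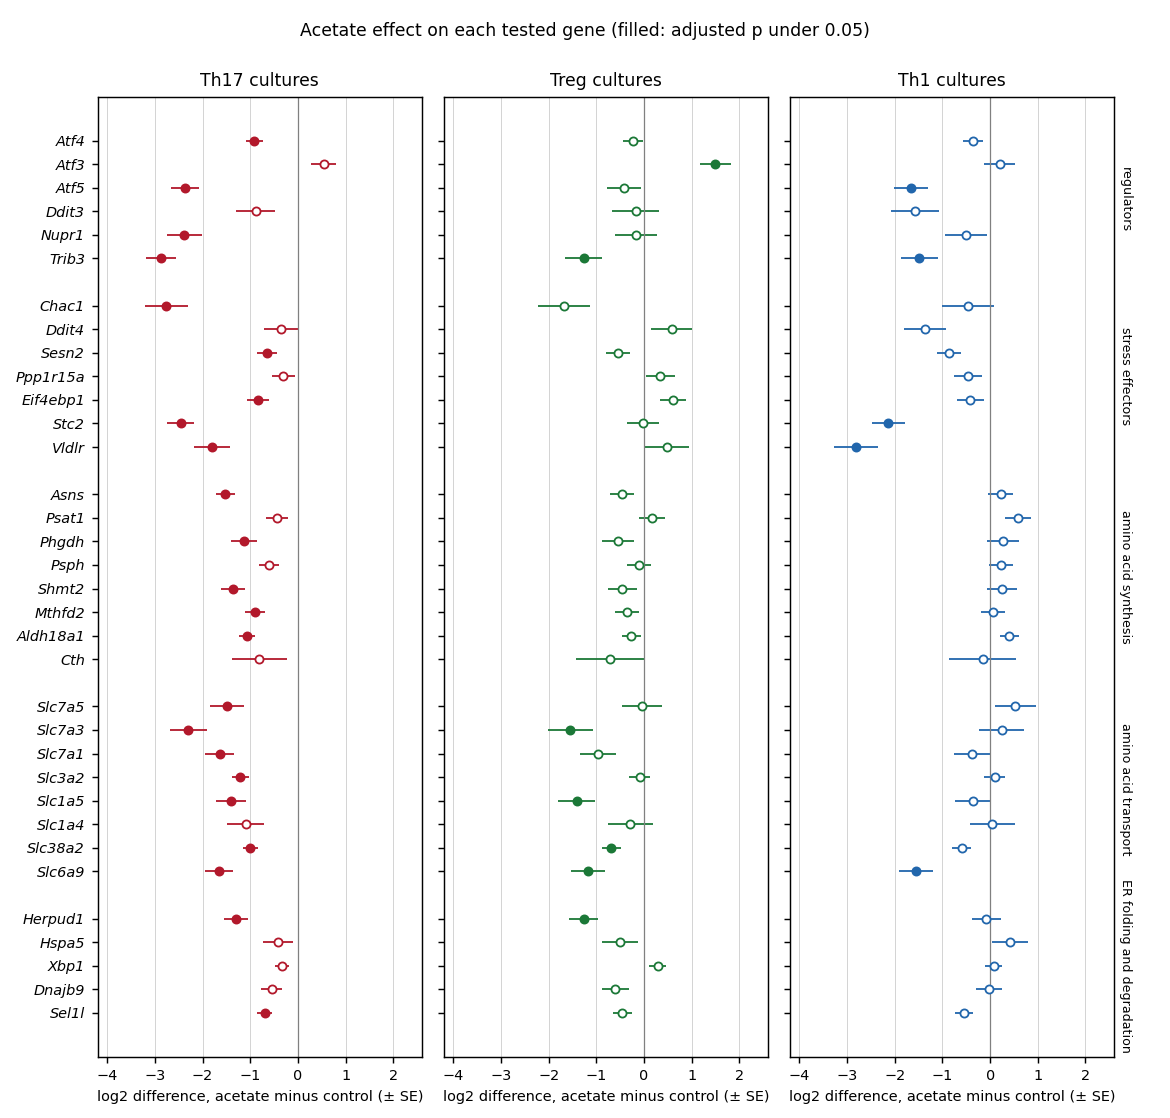
Log2 differences (acetate minus control, points) from limma for the 34 genes tested, grouped by role. Lines show the difference ± SE and are narrower than confidence intervals. Cultures are Th17 (3 against 3 arrays), Treg (2 against 2) and Th1 (2 against 2). Points for Th17 lie left of 0 for 33 of the 34 genes, while in Th1 cultures 20 of the 34 do.

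Among the regulators, the largest difference was that of Trib3, a pseudokinase that is induced by ATF4 and restrains it. Its normalized signal was 448, 335 and 417 on the Th17 control arrays and 64.8, 31.1 and 66.5 on the acetate arrays. The groups did not overlap, and the log2 difference was -2.88 ± 0.32 (SE, adjusted p = 0.000161), or 7.36-fold lower. Atf5, an ATF4-related factor also under translational control, read 311, 450.4 and 485 without acetate and 69.7, 60.4 and 106 with it. All acetate arrays were again below all controls, by -2.37 ± 0.29 (adjusted p = 0.00026). Nupr1, a small stress-induced nuclear protein, read 168, 125 and 168 in controls and 18.6, 19.5 and 51.3 with acetate, a difference of -2.38 ± 0.36 (adjusted p = 0.000976).

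The mRNA of Atf4 itself changed less. It read 3417, 3355 and 3579.8 on the control arrays and 1411, 1885 and 2306 on the acetate arrays, which did not overlap, and fell by 0.91 ± 0.17 (adjusted p = 0.00268). When the probe sets of each gene were averaged, its difference was -0.50 with an adjusted p of 0.246 in limma. That average takes in an Atf4 probe set below the filter, with mean signals of 1.77 in Th17 controls and 2.87 with acetate. The other Atf4 probe set above the filter was at -0.87. Ddit3, which encodes the pro-apoptotic factor CHOP, did not pass the test at -0.89 ± 0.41 (adjusted p = 0.144): acetate replicate 1 read 136 and the other two 412 and 399, below controls of 465 to 585. Atf3, a stress-induced factor of the same bZIP class, was the single gene with a positive difference, 0.54 ± 0.26, and did not pass (adjusted p = 0.169).

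**Figure D2:**
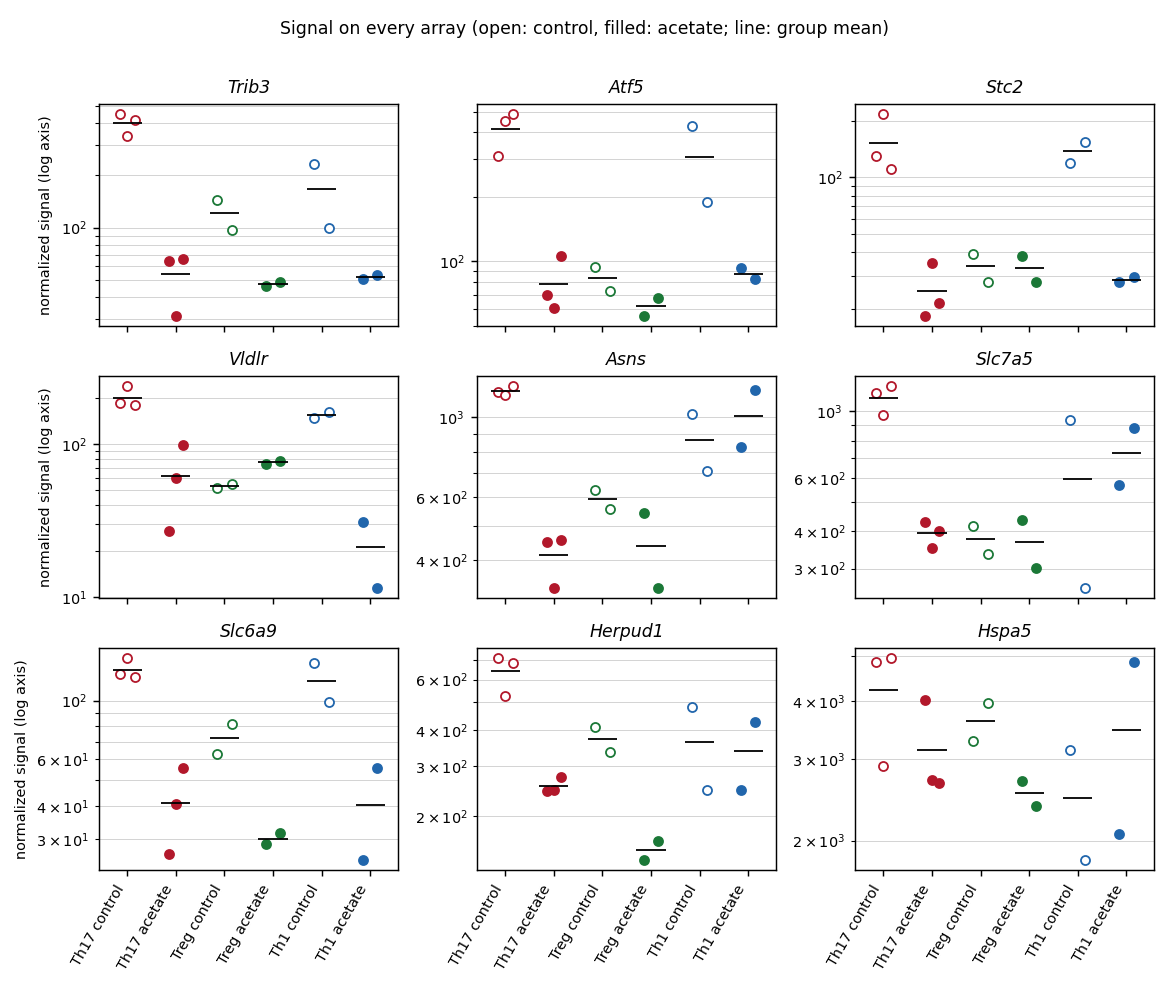
Normalized signal (log axis) on each of the 14 arrays for 9 of the genes, by culture and treatment, with 1 point per array (open for control, filled for acetate) and the group mean as a line. The Th17 acetate arrays lie below the Th17 control arrays in 8 of the 9 panels; in that of Hspa5 they overlap them.

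Of the stress effectors, Chac1, which degrades glutathione, had control signals of 228, 169.6 and 252 and acetate signals of 31.8, 19.7 and 38.1. That is a fall of 2.76 ± 0.44 (adjusted p = 0.00127), with no overlap. Stc2, a secreted glycoprotein induced by ER stress, read 130.5, 216 and 110.4 in controls and 18.3, 35.2 and 21.5 with acetate, and fell by 2.46 ± 0.28 (adjusted p = 0.000181). Vldlr, a lipoprotein receptor, read 184, 237 and 178 and then 27.2, 59.5 and 98.3, and fell by 1.80 ± 0.38 (adjusted p = 0.00529). Eif4ebp1, an inhibitor of cap-dependent translation, fell by 0.85 (adjusted p = 0.0205), a call that was lost without any 1 of the 3 Th17 control arrays (adjusted p up to 0.0610). Sesn2, an inhibitor of mTORC1, fell by 0.65 ± 0.21 (adjusted p = 0.0397) although its groups overlapped, and its adjusted p reached 0.143 with an array left out. Ddit4, another brake on mTORC1, and Ppp1r15a, which directs the dephosphorylation of eIF2, did not pass, at -0.36 ± 0.35 and -0.31 ± 0.25.

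Among the synthesis enzymes, Asns, asparagine synthetase and a standard readout of ATF4, read 1178, 1156 and 1220 in controls and 451, 335 and 457 with acetate. The 3 acetate arrays lay well below the 3 controls, and the difference was -1.52 ± 0.21 (adjusted p = 0.000511), or 2.87-fold lower. Shmt2 and Mthfd2, which run the mitochondrial one-carbon pathway, fell by 1.36 (adjusted p = 0.00285) and 0.90 (adjusted p = 0.00794). A second probe set of Shmt2 above the filter was at 0.11, and with probe sets averaged Shmt2 was at -0.68 (adjusted p = 0.135). Aldh18a1, which starts proline synthesis from glutamate, fell by 1.07 ± 0.17 (adjusted p = 0.00103). In the serine pathway the first enzyme, Phgdh, fell by 1.13 (adjusted p = 0.0111; 0.0529 without acetate replicate 2), while Psat1 and Psph, the enzymes after it, were at -0.44 and -0.61 and did not pass (adjusted p = 0.183 and 0.0556). Cth, which makes cysteine, varied widely, with acetate signals of 230.4, 156 and 39.4 beside controls of 141 to 246, and did not pass.

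The transporters were lower on every acetate array than on every control array for all 8 tested, with a median difference of -1.45. Slc7a5, the large neutral amino acid transporter, read 1148, 972 and 1213 in controls and 430.2, 350.4 and 401 with acetate, a difference of -1.49 ± 0.35 (adjusted p = 0.00985). Its partner chain Slc3a2 read 1809.9, 1848 and 1843 and then 747, 792 and 838, and fell by 1.21 (adjusted p = 0.000757). The cationic amino acid transporters Slc7a3 and Slc7a1 fell by 2.30 and 1.64 (adjusted p = 0.00155 and 0.00305). Slc1a5, which exchanges glutamine and other neutral amino acids, fell by 1.41 and Slc38a2, a sodium-coupled transporter of small neutral amino acids, by 1.00 (adjusted p = 0.00758 and 0.00129). With probe sets averaged, Slc38a2 was at -0.45 (adjusted p = 0.0720). Slc6a9, the glycine transporter, read 126, 144 and 122 in controls and 26.5, 40.8 and 55.8 with acetate, and fell by 1.65 (adjusted p = 0.00211). Slc1a4 was at -1.10 ± 0.39 and did not pass (adjusted p = 0.0599).

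The ER factors were divided. Herpud1, a membrane component of ER-associated degradation, read 711, 526 and 684 in controls and 246, 247 and 275 with acetate, and fell by 1.30 (adjusted p = 0.00304). Sel1l, an adaptor of the same degradation machinery, fell by 0.69 (adjusted p = 0.00845), but with probe sets averaged it was at -0.37 (adjusted p = 0.118). Hspa5, the chaperone BiP, overlapped between groups, with 4851, 2892 and 4947 in controls and 4026, 2709.9 and 2659 with acetate, and did not pass at -0.42 ± 0.31. Xbp1 at -0.34 and Dnajb9, an ER co-chaperone induced by Xbp1, at -0.56 did not pass either (adjusted p = 0.128 and 0.100). Of the 18 genes that fell in Th17 cultures and had another probe set above the filter, 17 had all such probe sets lower, Shmt2 being the exception. Among genes with a promoter, 6 of the 8 tested ones with the TGATGNAA motif fell, with a median difference of -1.66 over the 8, and 13 of the 21 without it, with a median of -0.90 over the 21; these are descriptions, with no test.

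Marker genes of T cells and of other cell types moved in the same cultures. The summed signal of 6 T cell markers was 10434 to 11531 on Th17 control arrays and 5624 to 8957 on acetate arrays, and 3 of the 6 fell. Of 5 macrophage and monocyte markers, the sum was 68.6 to 72.8 in controls and 103 to 187 with acetate. That higher sum was carried by Cd68, which rose by 2.10 on the log2 scale to a mean of 91.5, whereas Csf1r and Adgre1 were at -0.36 and -0.32 and did not pass, and Lyz2 and Cd14 were below the filter. The sum of 2 CD8 markers was 51.6 to 179 in controls and 180.1 to 332 with acetate, and 1 of the 2 passed. Cd8b1 (means of 40.9 and 147) carried most of that higher sum, with Cd8a at 73.2 and 96.3. The sum of 2 NK cell markers was 38.5 to 55.5 and 77.8 to 116. It was carried by Klre1 (40.8 and 94.8), while Ncr1 (5.11 and 4.94) was below the filter. That of 5 plasma cell markers was 47.6 to 64.9 and 71.1 to 83.5. In the plasma cell list Mzb1 went the other way, at -0.80, and did not pass. The sum of 4 mast cell and basophil markers was lower with acetate, 76.0 to 112 in controls and 25.3 to 45.3, and Kit fell by 1.57. The part of these in the differences was not tested, and in bulk RNA fewer cells of a type and less RNA per cell cannot be told apart.

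In Treg cultures fewer of the genes passed. Acetate came with 6 of 34 lower and 1 higher, where 5.44% of all genes fell and 7.04% rose, and the median difference was -0.39 against 0.03 for all genes. Both acetate arrays lay below both controls for 20 of the 34 (29.6% of all genes) and above them for 6 (35.1% of all genes). The calls rest on 2 arrays a group: without either Treg control array or without acetate replicate 1, 0 of the 34 passed in limma, 1 passed without acetate replicate 2, and 3 without any 1 Th17 control.

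Transporters made up 4 of the 6 Treg falls. Slc1a5 read 480.2 and 491 in Treg controls and 195 and 167 with acetate, a fall of 1.41 (adjusted p = 0.0298), the same size as in Th17 cultures. Its other probe set above the filter was lower by less, at -0.40 in Treg and -0.62 in Th17 cultures. Slc7a3 fell by 1.55, Slc6a9 by 1.17 and Slc38a2 by 0.68 (adjusted p = 0.0475, 0.0478 and 0.0394). The other Slc6a9 probe set above the filter was at -0.27 in Treg cultures. Herpud1 read 409 and 335 and then 141 and 165, and fell by 1.27 ± 0.30 (adjusted p = 0.0159). Trib3 read 145 and 97.5 in controls and 46.2 and 49.1 with acetate, and fell by 1.27 (adjusted p = 0.0487). Chac1 had a difference of -1.68 with no overlap and did not pass (adjusted p = 0.0618).

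Atf3 was the only one of the 34 to rise in any of the 3 cultures. It read 71.2 and 74.7 in Treg controls and 282 and 158 with acetate, a difference of 1.497 ± 0.32 (adjusted p = 0.00974). None of the 8 synthesis enzymes passed, at an unadjusted p either (0 of 8 under 0.05 in limma), and their median difference was -0.41. Several genes that fell strongly in Th17 cultures were already low in Treg controls. Atf5 read 94.6 and 72.8 without acetate and 55.6 and 67.6 with it, Nupr1 36.6 and 23.4 and then 31.2 and 21.1, and Stc2 39.4 and 27.9 and then 38.2 and 27.8. These levels are close to those of Th17 acetate cultures, and none of the 3 differences passed (adjusted p = 0.504, 0.856 and 0.978). T cell markers were lower here as well, with a summed signal of 13249 to 14879.9 in controls and 8268 to 9204 with acetate. Some marker sums of other cells were higher. The NK cell sum was 20.7 to 22.0 in Treg controls and 80.0 to 84.6 with acetate (Klre1 rose by 1.92). The macrophage and monocyte sum was 104 to 128 and 177 to 205, and the CD8 sum 196 to 217 and 259.8 to 268. In these 2 lists 0 genes passed. Cd68 (48.9 and 118) and Cd8b1 (53.1 and 116) carried the sums, while Cd8a had 153 and 148. B cell sums (87.6 to 95.2 and 83.0 to 87.9) and mast cell and basophil sums (66.2 to 158 and 66.4 to 90.9) overlapped between the groups. Their part in the Treg differences was not tested.

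In Th1 cultures 5 of 34 fell and 0 rose, where 1.91% of all genes fell and 2.07% rose, with a median of -0.26 against 0.03. Acetate arrays lay below both controls for 13 of the 34 (21% of all genes) and above them for 2 (22.1% of all genes). Vldlr fell most, from 148 and 160.3 to 31.2 and 11.5, by 2.82 ± 0.46 (adjusted p = 0.00909), or 7.06-fold. Stc2 went from 120 and 155 to 27.7 and 29.6, a fall of 2.14 (adjusted p = 0.00884). Atf5 fell by 1.67 (adjusted p = 0.0274), Slc6a9 by 1.56 (adjusted p = 0.0328) and Trib3 by 1.49 (adjusted p = 0.0499). The other Slc6a9 probe set above the filter was at -0.56 in Th1 cultures. When only the 4 Th1 arrays were fitted, 0 of the 34 passed.

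The synthesis enzymes were not lower in Th1 cultures. Their median difference was 0.24, 7 of 8 were positive and 0 passed (0 of 8 also at an unadjusted p under 0.05 in limma). Asns read 1021 and 711 without acetate and 826 and 1194 with it, groups that overlap. The median signal CV of the 34 was 32.2% in Th1 controls, 26.0% in Th17 acetate, 20.7% in Th1 acetate, 13.3% in Treg acetate, 12.8% in Th17 control and 8.12% in Treg control cultures. Over all genes, the correlation between the Th1 controls (0.950) was not the lowest: the Th1 acetate arrays had 0.940, and 2 pairs of Th17 acetate arrays 0.944 and 0.947. Control replicate 1 read 934 for Slc7a5 and 274 for Chac1, and replicate 2 read 259 and 63.2. The per-array median log2 value of the 34 was 9.05 on replicate 1 and 8.12 on replicate 2, and 8.12 and 8.51 on the acetate arrays. The Th1 count of 5 was 2 without control replicate 2 or acetate replicate 2, 3 without control replicate 1 or any Th17 control, and 8 without Th17 acetate replicate 1. T cell markers summed to 12550 to 12714 in Th1 controls and 6692 to 8288 with acetate. NK cell markers summed to 11.2 to 17.3 and 34.9 to 68.4 (Klre1 rose by 2.14). The 18S control probe set read 298 to 609 in Th1 controls and 879 to 1576 with acetate. The part of these in the Th1 differences was not tested.

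**Figure D3:**
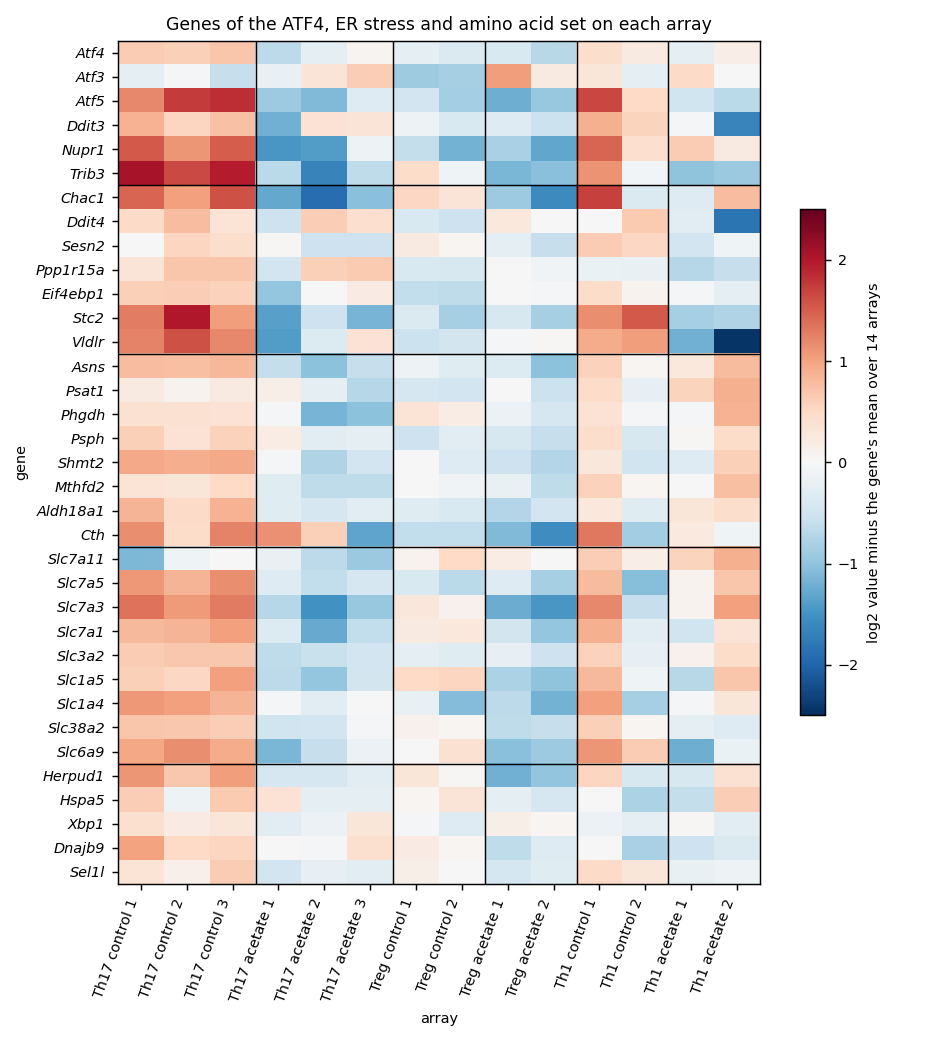
Log2(signal + 3) of the 35 genes on the array, Slc7a11 included, on each of the 14 arrays (columns), shown as the difference from that gene's mean over the arrays (colour), with genes grouped by role. The Th17 control columns are red for most genes, and Th1 control replicate 1 is higher than replicate 2 for all but Ddit4, Stc2 and Vldlr.

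Whether the acetate differences themselves differed between cultures was tested with an F test in limma over all genes, in which 2 of 34 passed, Stc2 and Aldh18a1 (adjusted p = 0.0442 for each), against 0.797% of all genes. Stc2 fell by 2.46 in Th17 and 2.14 in Th1 cultures and was at -0.02 in Treg cultures, and the Th17 and Treg differences were apart by -2.44 (adjusted p = 0.028), in a test that 0.284% of all genes passed in that direction. Aldh18a1 was at -1.07 in Th17 cultures, -0.27 in Treg cultures and 0.40 in Th1 cultures. Vldlr was at 0.48 in Treg and -2.82 in Th1 cultures, and these were apart by 3.30 (adjusted p = 0.043), in a test that 0.513% of all genes passed in that direction. Asns, at -1.52, -0.47 and 0.22, missed the threshold of the F test (adjusted p = 0.0548). Between Th17 and Th1 cultures 0 of the 34 differences were apart in limma at an adjusted p under 0.05 (0 of all 10916 genes were in the negative direction), although 15 were more negative in Th17 cultures at an unadjusted p under 0.05 (6.65% of all genes). So for most genes a fall in Th17 cultures alone does not show that the cultures differed.

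Averaged over the 3 cultures with equal weight, 21 of 34 fell and 1, Atf3, rose (0.75 on the log2 scale), where 14.1% of all genes fell and 17.6% rose. Trib3 fell by 1.88 and all 8 transporters were negative, with 6 of them passing. All 6 T cell markers fell in this mean too, by a median of -0.70. It draws on the same arrays as the 3 comparisons above.

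Without acetate, most of the genes had their highest mean in Th17 cultures. All 34 had a higher mean in Th17 than in Treg controls, with a median difference of 0.94 against 0.00 for all genes. Of these 15 passed, against 5.31% of all genes in that direction, 0 were lower (6.01% of all genes; 0 of 34 also at an unadjusted p under 0.05 in limma), and 30 showed no overlap (26.7% of all genes), with 0 wholly below (27.9% of all genes). Atf5 and Nupr1 were each 2.26 higher in Th17 than in Treg controls (adjusted p = 0.000733 and 0.00284), Stc2 2.05 (adjusted p = 0.00117), Slc7a5 1.56 (adjusted p = 0.0204), Asns 1.00 (adjusted p = 0.0138) and Atf4 0.95 (adjusted p = 0.00544). Without Treg control replicate 2 the count was 3, and without replicate 1 it was 7. These differences share the Th17 and Treg control arrays with the acetate comparisons, so the 2 kinds of difference are not independent of each other. Marker sums and RNA quality also differed without overlap between these controls. In Th17 and Treg controls respectively, T cell markers summed to 10434 to 11531 and 13249 to 14879.9, B cell markers to 33.1 to 65.5 and 87.6 to 95.2, plasma cell markers to 47.6 to 64.9 and 125 to 156, and macrophage markers to 68.6 to 72.8 and 104 to 128. The Gapdh 3-prime to 5-prime ratio was 0.99 to 1.07 in Th17 controls and 1.22 and 1.23 in Treg controls, and the part of these in the difference was not tested.

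Against Th1 controls, 4 of 34 were higher and 0 lower in Th17 controls (2.99% and 3.62% of all genes; 11 and 0 of the 34 at an unadjusted p under 0.05 in limma, as 10.3% and 12.4% of all genes): Trib3 by 1.36, Dnajb9 by 1.10, Shmt2 by 1.05 and Aldh18a1 by 0.76 (adjusted p = 0.0376, 0.0223, 0.0435 and 0.0278). All Th17 controls lay above both Th1 controls for 15 of the 34 (20.3% of all genes) and below them for 0 (23.6% of all genes). The count of 4 was 11 without Th1 control replicate 1 and 0 without replicate 2. In Treg controls 3 of 34 were lower and 0 higher than in Th1 controls (2.14% and 2.85% of all genes; 7 and 0 at an unadjusted p under 0.05 in limma, as 9.1% and 9.39% of all genes): Stc2 by -1.94, Nupr1 by -1.82 and Atf5 by -1.74. The arrays did not overlap for 17 that were lower (25.4% of all genes) and 2 that were higher (24.4% of all genes). The count of 3 was 0 without Treg control replicate 2, 1 without Treg control replicate 1 or Th1 control replicate 1, and 6 without Th1 control replicate 2 or Th17 acetate replicate 1. The order of means was Th17, Th1, Treg from high to low for 24 of the 34, and for 18.8% of all genes. The range between the 3 cultures was narrower with acetate than without for 24 of the 34 (70.6%), and for 57.5% of all genes. Some marker sums and the 18S reading also differed without overlap from Th1 controls. T cell markers summed to 10434 to 11531 in Th17 and 12550 to 12714 in Th1 controls. NK cell markers summed to 38.5 to 55.5 and 11.2 to 17.3, and 18S read 2809 to 4140 and 298 to 609. B cell sums overlapped between these controls, but were 87.6 to 95.2 in Treg and 32.5 to 65.2 in Th1 controls. The part of these was not tested.

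Other genes of the same pathways were taken from lists that do not overlap the 34. Of 18 cytosolic aminoacyl-tRNA synthetases, which charge tRNAs and include ATF4 targets, 8 fell and 1 rose with acetate in Th17 cultures. Of all genes 8.66% fell and 11.7% rose there. The median of the 18 was -0.56 against 0.01 for all genes. The largest falls were those of Eprs (-1.29), Wars (-1.28) and Lars (-0.99), and Qars rose by 0.53. In Treg cultures Wars alone fell (-1.30), where 5.44% of all genes did. In Th1 cultures 0 of the 18 passed in limma, against 3.98% of all genes in either direction. At an unadjusted p under 0.05 in limma 2 were higher and 0 lower there, against 11.3% and 10.6% of all genes. Among 7 partner bZIP factors, Cebpb and Cebpg, which pair with ATF4, fell in Th17 cultures by 1.51 and 0.94. Batf3 rose by 1.02 there and by 3.04 in Treg cultures, and Nfe2l2, the antioxidant regulator, fell by 1.20 in Th1 cultures. Of all genes, 20.3% were called in either direction in Th17 cultures, 12.5% in Treg cultures and 3.98% in Th1 cultures.

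The wider set of ER chaperones and degradation factors did not show the falls of the tRNA synthetases. Of 22 genes, 0 fell and 1 rose in Th17 cultures in limma, against 8.66% and 11.7% of all genes, with a median of -0.14. At an unadjusted p under 0.05 in limma 3 were lower and 3 higher, against 15.5% and 19% of all genes. The gene that rose was Edem1 (0.61), which delivers misfolded glycoproteins to degradation. In Treg cultures 3 of the 22 rose (7.04% of all genes), Sdf2l1 (1.38), Edem2 (1.31) and Edem1 (0.77). In Th1 cultures 2 rose (2.07% of all genes), Sdf2l1 (1.34) and Pdia6 (1.14). Of 5 plasma cell markers, which mark cells rich in ER, the summed signal was 125 to 156 in Treg controls and 236 to 265 with acetate, and 120.2 to 149 and 318 to 370.2 in Th1 cultures; the sums were carried by Prdm1 and Sdc1, while Mzb1, an ER protein of plasma cells, was lower by 0.92 and 1.00 on the log2 scale, passed in neither, and fell by 0.91 in the mean of the cultures. Jchain and Tnfrsf17 were below the filter, and the part of such cells was not tested.

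**Figure D4:**
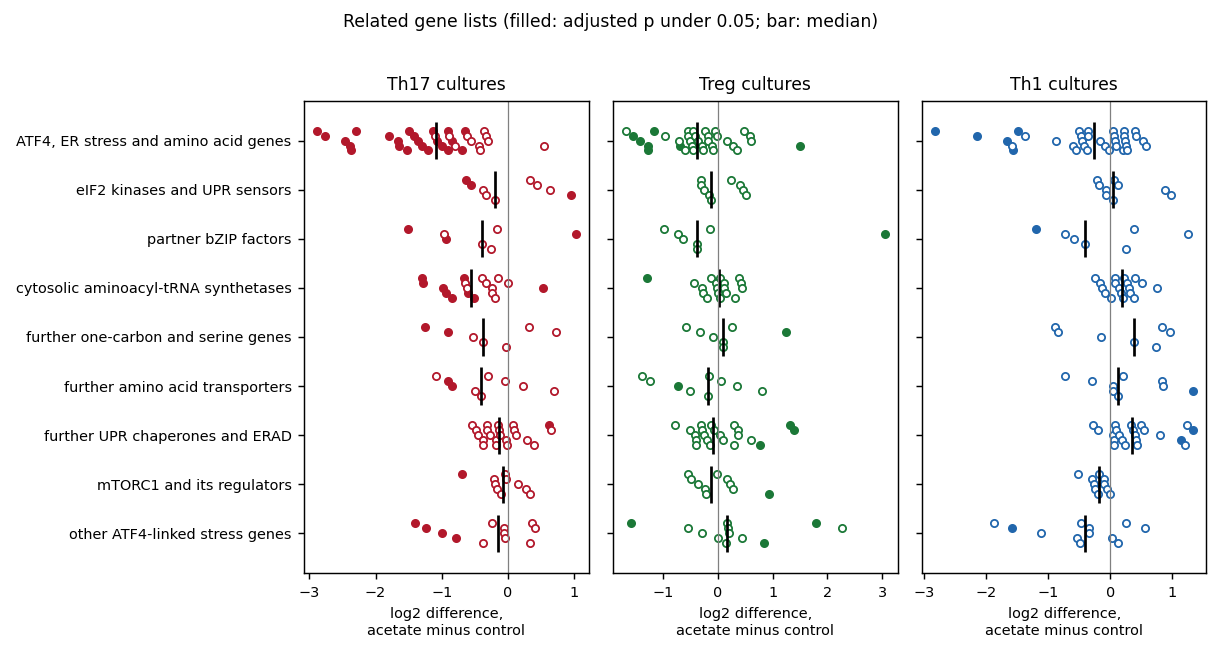
Log2 differences (acetate minus control) of single genes (points, filled where the adjusted p was under 0.05) for the 34 genes in the top row and for 8 further pathway lists below, with the median of each as a bar. UPR stands for the unfolded protein response and ERAD for ER-associated degradation. The row of eIF2 kinases also holds the eIF2 regulators Ppp1r15b and Eif2b5. The synthetase median is -0.56 in Th17 cultures, 0.02 in Treg cultures and 0.19 in Th1 cultures.

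The remaining lists were called in either direction at shares to be read against 20.3% of all genes for Th17 cultures, 12.5% for Treg cultures and 3.98% for Th1 cultures. One list held 9 eIF2 kinases, other eIF2 regulators and sensors of ER stress. Of these, Atf6b and the eIF2 regulator Ppp1r15b fell (-0.64 and -0.55) and the amino acid sensing kinase Eif2ak4 rose (0.95) in Th17 cultures. In Treg and Th1 cultures 0 passed in limma (2 in Th1 and 0 in Treg at an unadjusted p under 0.05, the 2 being higher). Of 9 further transporters, Slc38a1 and Slc7a6 fell in Th17 cultures (-0.90 and -0.84), Slc38a1 in Treg cultures (-0.74), and Slc7a7 rose in Th1 cultures (1.34). Of 7 further one-carbon and serine genes, Aldh1l2 and Mthfd1l, both mitochondrial enzymes of the pathway, fell in Th17 cultures (-1.25 and -0.91), and Cbs rose in Treg cultures (1.25). Of 10 mTORC1 genes, Rheb fell in Th17 cultures (-0.70) and Rragd rose in Treg cultures (0.94). Of 12 other stress genes linked to ATF4, the pro-apoptotic Bbc3 fell by 1.00 in Th17 cultures, 1.59 in Treg cultures and 1.58 in Th1 cultures, and Gpt2 (-1.41), Vegfa (-1.25) and Gclm (-0.79) fell in Th17 cultures, while Jmjd6 (1.79) and Lonp1 (0.85) rose in Treg cultures.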

How the data were processed

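The authors deposited linear signal intensities, for which the submitters' processing notes name MAS5; version and scaling target are not given in these sources. Of 45101 probe sets, 34945 with 1 gene symbol were used. Left out were 932 with several symbols, 9211 with none and 64 controls, and these counts of left-out probe sets overlap. Values were taken as log2(signal + 3) and quantile normalized, and a normalized signal is that value turned back. A log2 difference on this scale understates changes of low genes. Genes with a mean log2 value at or above the 40th percentile (3.60, a signal of about 9.11) were tested. limma 3.58.1 (R 4.3.3) fitted 6 group means with eBayes and a trend, leaving 8 residual degrees of freedom; adjusted p-values are Benjamini-Hochberg over 10916 genes, called under 0.05. The fit was tested on simulated data. The number of arrays limits the precision, and no batch is given in the labels. Genes named with values for every array are those called in an acetate comparison or needed for a role, and up to 3 called genes per list and direction. Members and lists were chosen with earlier results of these data known. Alternatives were the scaling, pseudocount, filter, probe set choice, trend, arrays fitted, replicate block and leaving out each array. RefSeq promoters were searched by letters.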

Additional observations from a re-analysis of the deposited data

Results flagged for a closer look

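In 2 genes the acetate differences were not the same in the 3 cultures by the F test in limma. For Stc2 the adjusted p was 0.0442, and it ranged from 0.0230 to 0.227 over the alternatives. For Aldh18a1 it was also 0.0442, and it ranged from 0.0186 to 0.130. In pairs, the Stc2 difference was more negative in Th17 than in Treg cultures by -2.44 on the log2 scale, and that of Vldlr was higher in Treg than in Th1 cultures by 3.30. No group held 4 arrays, so single arrays were not tested as outliers.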

How the results depend on the processing

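Of the 23 falls in Th17 cultures, 16 passed in every alternative run (among them Trib3, Atf5, Stc2, Asns, Slc7a5 and Herpud1), as did 3 of the 15 genes higher in untreated Th17 than Treg cultures (Aldh18a1, Atf5 and Stc2) and 15 of the 22 calls in the mean of the cultures. None did among the acetate calls in Treg or Th1 cultures, the differences between acetate effects, or the untreated comparisons with Th1. No called difference changed sign. The Th17 count of 23 ranged from 20 to 27 over the alternatives. On the values as deposited, the Th1 count of 5 was 3, the untreated counts were 21 for Th17 against Th1 and 26 for Th17 against Treg, and the median of all genes was at -0.29 for acetate in Th17 cultures (-1.35 for the 34), 0.62 for untreated Th17 against Th1 and 0.41 for Th17 against Treg; differences there are best read against these shifts. The count of 2 genes whose acetate differences differed between cultures was 0 with arrays scaled to a common trimmed mean, 4 with a pseudocount of 16, 1 with no filter and 0 with no trend. For Treg cultures the count of 7 was 4 with no filter, 3 with probe sets averaged, 2 with no trend and 15 when only the groups compared were fitted. For Th1 cultures it was 3 with probe sets averaged and 0 with only the groups compared. Untreated Th17 against Th1 gave 1 with probe sets averaged and 2 with no trend; with only the groups compared, Treg against Th1 gave 5 and Th17 against Treg 29. The causes were not tested.

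Same-numbered arrays did not consistently deviate together (correlations of 0.152, 0.160 and -0.063 in Th17 cultures, 0.064 in Treg cultures and -0.159 in Th1 cultures). Crossed numbers in Th17 cultures gave -0.193 to 0.054. With 2 arrays a group, crossed numbers can only give the same values with the sign turned. The numbers were not taken as pairs. With a replicate block the count was 22 for Th17, 2 for Treg, 3 for Th1, 1 for the difference between cultures and 1 for untreated Th17 against Th1. With the Th1 numbers crossed, an alternative chosen after seeing the data, the Th1 count was 6.

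With 1 array left out at a time, counts ran from 21 to 25 in Th17 cultures, 0 to 8 in Treg cultures, 2 to 8 in Th1 cultures and 17 to 25 for the mean of the cultures. They ran from 0 to 9 for the difference between cultures (9 without Th1 acetate replicate 1, 8 without Th1 control replicate 1, 6 without Th17 acetate replicate 1, and 0 or 1 without any of 10 other arrays), 0 to 11 for untreated Th17 against Th1, 0 to 6 for Treg against Th1 and 3 to 18 for Th17 against Treg. Where 1 array remained in a group, its spread was taken from the other groups. Low signals, as for Slc7a11, and 2 arrays a group limit what could be called.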
